A study of Mus musculus with 12 samples.

Results

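The genes of retinoic acid metabolism and its receptors were followed across 4 treatments of mouse prostate organoids. They were chosen by name: Rdh10, Dhrs3, Aldh1a1 and Aldh1a3, which set retinal and retinoic acid synthesis, Crabp2, which carries retinoic acid, Cyp26a1 and Cyp26b1, which break it down, and the receptors Rarb and Rarg. Of these 9 genes, 8 had a row among the 24674 genes of the expression table, and the expression of Cyp26a1 was not analysed here. The set was drawn up after earlier results from the same samples were known, Cyp26b1 having the 4th lowest of the 454 UK5099 coefficients that passed the thresholds given further on. The members' values are therefore given as a description, with standard deviations and standard errors but without p-values.

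RNA was measured in organoids, small 3-dimensional cultures, grown from basal cells of the prostate of wild-type C57BL/6 mice. The 12 cultures fell into 4 groups of 3: vehicle, UK5099 alone, Butyrate alone, and the combination of UK5099 + Butyrate. UK5099 is a blocker of the mitochondrial pyruvate carrier, the route by which pyruvate enters mitochondria. Butyrate, a short-chain fatty acid, inhibits histone deacetylases. Doses, treatment times and the ages of the source mice are not in the sample labels, nor do the labels say that the cultures came from separate animals, so errors and p-values measure the spread between these 12 samples.

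Retinoic acid is made from retinol (vitamin A) in a pair of oxidation steps, first to retinal and then to the acid. The acid binds receptors of the RAR family, which pair with RXR receptors on repeated half-sites in DNA and switch genes on. Several genes of the pathway are themselves well-known retinoic acid targets, among them Rarb, Cyp26a1, Dhrs3 and Crabp2, so the pathway is known for feedback. In glandular epithelia such as the prostate, retinoic acid is known for its part in differentiation and for restraint of squamous (skin-like) fates.

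Repeated half-sites were searched in the reference promoters of the members, because they are the sequence through which the receptors act. Rdh10, Aldh1a3 and Crabp2 had no window in the reference and were not searched. The half-sites allowed were AGGTCA, the common form, then AGTTCA, and further GGGTCA as well as GGTTCA. A pair of them in the same direction with 5 bases between (DR5) was searched on both strands, in windows of 250 bases before to 50 after each start (RefSeq, GRCm38.p6). Both hits are printed here along the strand of the gene, with the repeat in capitals, for the window of Rarb at chr14:16575427-16575726 and that of Cyp26a1 at chr19:37697558-37697857.
Rarb: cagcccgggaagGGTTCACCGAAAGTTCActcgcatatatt
Cyp26a1: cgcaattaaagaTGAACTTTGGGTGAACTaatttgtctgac
In Rarb the repeat ran from 53 to 37 bases before the start, along the gene. In Cyp26a1 it ran from 32 to 16 bases before the start and on the other strand, where it reads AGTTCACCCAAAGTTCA. A DR5 stood in the windows of 31 of 27025 genes (0.115%). Pairs spaced by 1 or 2 bases, which 0.263% and 0.311% of genes held, were in no member's window, and the windows of Cyp26b1, Dhrs3, Aldh1a1 and Rarg held none of the 3 repeats. These letters are a match to the reference only, and binding was not measured.

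Levels are given as deposited in TPM, transcript abundance per unit of gene length with an equal total in every sample. Here the values were fragments divided by a gene's whole genomic span, introns included. The members are therefore compared with each other only on TPM recomputed with exonic length. Where the highest gene of another list is named, or markers are summed, deposited TPM is used, which gives genes of long span less weight. Differences between groups were fitted with limma on log2(TPM + 1) and are coefficients on that scale, which understate the change of genes with low TPM. A gene was called at an adjusted p under 0.01 and an absolute coefficient over 1. The depth of a sample, read from the steps between its low TPM values, was 33251835 to 43498970 fragments, and these fragments were also tested with voom, on a log2 scale relative to depth. In the 14437 genes whose mean reached 1 TPM in any group, the median coefficients against vehicle were -0.12 (UK5099), -0.29 (butyrate) and -0.40 (combination). With median-of-ratios scaling the share of called genes that were higher moved from 50.4% to 64% in the UK5099 comparison, from 31.8% to 62.3% in that of butyrate and from 27.9% to 67.1% in that of the combination. Smaller coefficients are therefore read against that shift, which was -0.02, -0.04 and -0.04 with voom.

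Cyp26b1, the enzyme that oxidises retinoic acid for removal, fell and Crabp2, which hands retinoic acid to its receptors, rose under all 3 treatments, each most under the combination. Rdh10 fell under all 3 treatments as well, and Aldh1a3 fell under butyrate. Of the 8 members, 3 were called for UK5099, where 1.84% of all genes were called, 4 for butyrate (3.54% of all genes) and 3 for the combination (6.42% of all genes). Since earlier results guided the choice of genes, nothing is read from these shares. The 3 comparisons share the vehicle samples. The median coefficients of the 8 members were -0.26, -0.26 and -0.36 in the same order, against -0.03, -0.07 and -0.11 over all genes and -0.12, -0.29 and -0.40 over genes that reached 1 TPM, as 7 of the 8 members did. With voom the members' medians were -0.21, -0.56 and -0.02. Samples of treatment and vehicle did not overlap in 49.2% of all genes for UK5099, 60.1% under butyrate and 64.7% under the combination, so separation alone sets no gene apart.

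**Figure D1:**
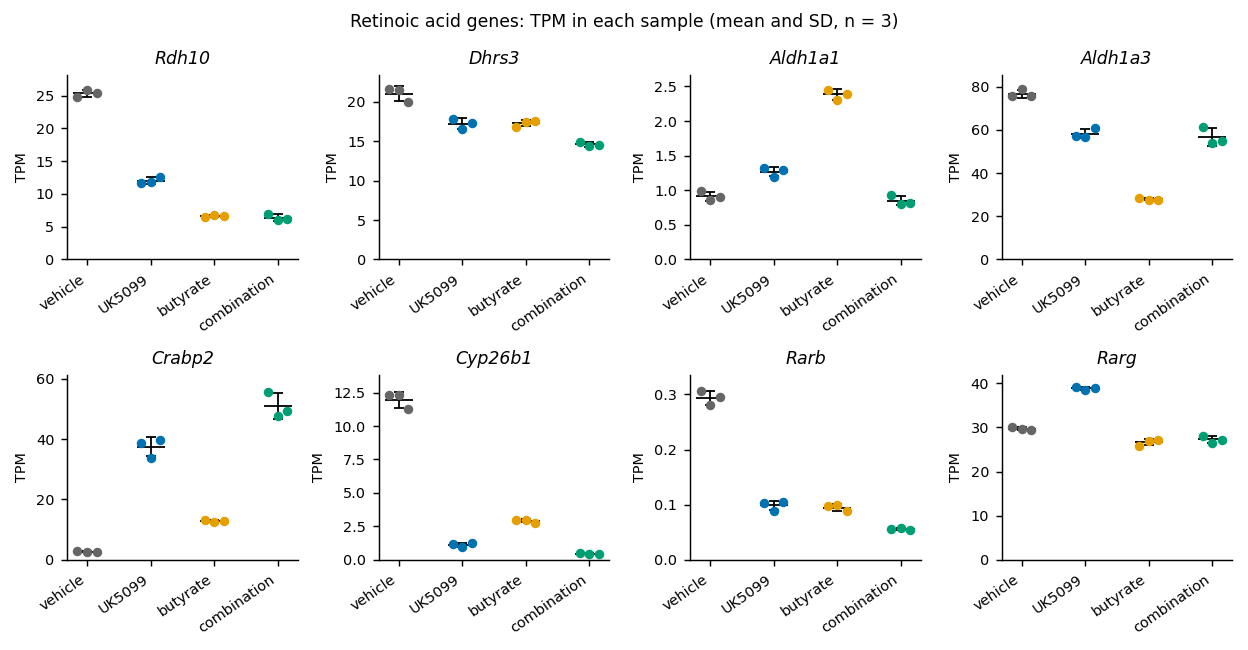
TPM (y axis, from 0) of the 8 members in each sample of the 4 groups, with a bar at the mean and whiskers of 1 SD (n = 3). Cyp26b1 stood at 11.3 to 12.3 TPM in vehicle and at 0.412 to 0.508 TPM in the combination, and Crabp2 at 2.42 to 2.92 and 47.5 to 55.7 TPM.

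Rdh10 (ENSMUSG00000025921, chr1:16175998-16203959, plus strand, GRCm39 for this and the other genes) oxidises retinol to retinal, the first step of synthesis. It read 24.8, 25.9 and 25.4 TPM in vehicle, 11.7, 11.7 and 12.6 TPM with UK5099, 6.47, 6.74 and 6.6 TPM with butyrate, and 6.94, 5.94 and 6.10 TPM with the combination. Vehicle was highest and UK5099 lay between, while butyrate and the combination overlapped. The mean was 2.11-fold lower with UK5099, 3.84-fold lower with butyrate and 4.01-fold lower with the combination. The coefficients were -1.02 ± 0.05 (SE), -1.79 ± 0.05 and -1.85 ± 0.05. The UK5099 coefficient sat just past the threshold. It was -1.0 without UK5099 replicate 1, just short of the threshold, and it was -0.87 with median-of-ratios scaling and -0.95 ± 0.04 with voom, also not called.

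Dhrs3 (ENSMUSG00000066026, chr4:144619397-144654780, plus strand) works in the opposite direction and reduces retinal to retinol. Its levels were 21.7, 21.5 and 20.02 TPM in vehicle, 17.9, 16.5 and 17.3 TPM with UK5099, 16.9, 17.4 and 17.6 TPM with butyrate, and 14.97, 14.4 and 14.6 TPM with the combination. No treated sample reached a vehicle sample, and UK5099 and butyrate overlapped. Dhrs3 was called in no comparison: its coefficients were -0.28 ± 0.04, -0.27 ± 0.04 and -0.50 ± 0.04, beside the shifts of -0.12, -0.29 and -0.40 given above. The butyrate coefficient changed sign with another scaling, to 0.07 with median of ratios and to 0.03 ± 0.03 with voom. That of the combination shrank to -0.02 with median of ratios and to -0.06 ± 0.03 with voom.

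Aldh1a3 (ENSMUSG00000015134, chr7:66040638-66077266, minus strand) oxidises retinal to retinoic acid. It gave 75.9, 79.0 and 75.7 TPM in vehicle, 57.4, 56.7 and 60.8 TPM with UK5099, 28.3, 27.5 and 27.6 TPM with butyrate, and 61.3, 53.9 and 54.8 TPM with the combination. Butyrate alone stood below all other groups, and the combination overlapped UK5099. Aldh1a3 fell 2.77-fold with butyrate, with a coefficient of -1.43 ± 0.05. The coefficients of -0.39 ± 0.05 for UK5099 and -0.44 ± 0.05 for the combination were not called, and the latter was 0.07 with median of ratios and 0.03 ± 0.04 with voom. The mean of the combination was 2.04-fold that of butyrate, with a coefficient of 0.999, just short of the threshold. It passed at 1.01 without butyrate replicate 1, at 1.03 and 1.02 without combination replicates 2 and 3, and at 1.18 with voom.

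Aldh1a1 (ENSMUSG00000053279, chr19:20470079-20620830, plus strand) catalyses the same step. It measured 0.985, 0.860 and 0.895 TPM in vehicle, 1.32, 1.20 and 1.29 TPM with UK5099, 2.46, 2.30 and 2.39 TPM with butyrate, and 0.925, 0.802 and 0.820 TPM with the combination. Butyrate was highest, UK5099 came next, and the combination overlapped vehicle. The butyrate mean was 2.61-fold that of vehicle, but at the low TPM of this long gene the coefficient of 0.82 ± 0.03 was under the threshold. With voom it was 1.70 ± 0.05 and called, as it was with a pseudocount of 0.1 (1.295), with exonic length (1.45) and with median of ratios (1.01). The combination coefficient of -0.05 ± 0.03 was 0.36 ± 0.06 with voom.

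Fragments of Aldh1a1 were not assigned cleanly. Neither of its 2 values under 1000 fragments was whole, so fragments were shared among genes. Its near copy Aldh1a7 read 1.15 ± 0.07, 2.82 ± 0.22, 4.96 ± 0.19 and 2.02 ± 0.15 TPM (SD, n = 3) in vehicle, UK5099, butyrate and the combination. Aldh1a1 also overlaps the antisense lncRNA C730002L08Rik, which stayed under 0.004 TPM on average. Its values are uncertain to that extent.

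Aldh1a3 held most of the transcripts of the pair of retinal dehydrogenases in all 4 groups. On TPM recomputed with exonic length, the sum of both was 359.5 ± 7.1 in vehicle, 286.5 ± 8.7 under UK5099, 179.5 ± 3.7 under butyrate and 292.4 ± 19.2 under the combination (SD, n = 3). The share of Aldh1a1 in that sum was 4.38% ± 0.37, 7.72% ± 0.34, 24.8% ± 0.39 and 5.45% ± 0.04 in the same order. Butyrate alone thus had the lowest sum and the highest Aldh1a1 share, and no other group overlapped it in either value.

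Crabp2 (ENSMUSG00000004885, chr3:87855973-87860684, plus strand) binds retinoic acid in the cytosol. Its levels were 2.92, 2.58 and 2.42 TPM in vehicle, 38.8, 33.8 and 39.7 TPM with UK5099, 13.1, 12.4 and 12.7 TPM with butyrate, and 55.7, 47.5 and 49.4 TPM with the combination. All 4 groups were separate, with vehicle lowest and the combination highest. Crabp2 was 14.2-fold higher with UK5099, 4.83-fold with butyrate and 19.3-fold with the combination. The coefficients were 3.40 ± 0.08, 1.92 ± 0.08 and 3.83 ± 0.08. The vehicle values rested on 78 to 95 fragments a sample, against 1219 to 1547 with UK5099, and voom gave 3.96 ± 0.17, 2.59 ± 0.17 and 4.74 ± 0.18.

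Cyp26b1 (ENSMUSG00000063415, chr6:84548396-84570891, minus strand) hydroxylates retinoic acid. It read 12.3, 12.3 and 11.3 TPM in vehicle, 1.14, 0.981 and 1.27 TPM with UK5099, 2.97, 2.99 and 2.77 TPM with butyrate, and 0.508, 0.412 and 0.442 TPM with the combination. The groups were again separate, in the reverse of the order of Crabp2: vehicle, butyrate, UK5099, combination. Cyp26b1 was 10.6-fold lower with UK5099, 4.12-fold lower with butyrate and 26.4-fold lower with the combination. The coefficients were -2.61 ± 0.05, -1.73 ± 0.05 and -3.16 ± 0.05, and with voom -3.27 ± 0.08, -1.72 ± 0.05 and -4.25 ± 0.08. The combination values rested on 92 to 126 fragments a sample. All 9 values under 1000 fragments were whole, as were the 6 of Crabp2.

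**Figure D2:**
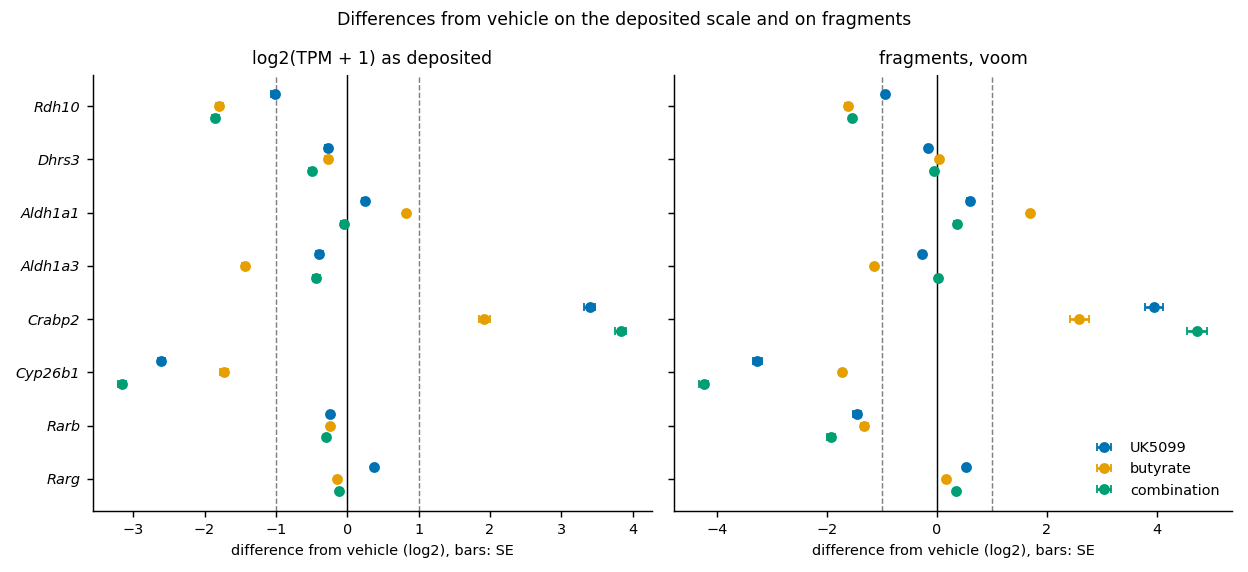
Differences from vehicle (x axis, log2) of the 8 members for the 3 treatments, on log2(TPM + 1) at left and on fragments with voom at right; points are coefficients, whiskers 1 SE, and dashed lines mark the threshold of 1. Crabp2 lies right of the line and Cyp26b1 left of it for all 3 treatments on both scales, while Rarb lies at -0.29 to -0.24 on the first scale and at -1.93 to -1.32 on the second.

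Rarb (ENSMUSG00000017491, chr14:5650540-6038925, plus strand) is the receptor whose promoter holds the repeat printed above, where the GRCm38.p6 window has the gene on the minus strand. It showed 0.306, 0.280 and 0.295 TPM in vehicle, 0.102, 0.0887 and 0.104 TPM with UK5099, 0.0974, 0.0984 and 0.0878 TPM with butyrate, and 0.0563, 0.0571 and 0.0545 TPM with the combination. Each treated group lay below vehicle, the combination was lowest, and UK5099 and butyrate overlapped. The means were 2.99-fold, 3.11-fold and 5.26-fold lower. Because the TPM of this gene is divided by a span of 388385 bp, the coefficients of -0.24 ± 0.01, -0.24 ± 0.01 and -0.29 ± 0.01 were not called.

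The call for Rarb depended on the scale. Its vehicle values stood for 698.8 to 957.1 fragments and its combination values for 220.2 to 241.2. With voom the coefficients were -1.45 ± 0.07, -1.32 ± 0.07 and -1.93 ± 0.07, and with exonic length -1.36, -1.33 and -1.90, all called. None of its 12 values was a whole number of fragments. Rarb shares 4624 bp with Top2b on the opposite strand, which read 15.2 ± 0.11, 13.0 ± 0.53, 11.1 ± 0.11 and 8.80 ± 0.26 TPM in the 4 groups, so fragments of the pair may have been divided and the part of Top2b in the Rarb values was not tested.

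Rarg (ENSMUSG00000001288, chr15:102143373-102165953, minus strand), a receptor of the same family that epithelia express widely, had 30.1, 29.7 and 29.3 TPM in vehicle and 39.2, 38.6 and 39.1 TPM with UK5099. It had 25.9, 27.0 and 27.2 TPM with butyrate and 28.2, 26.4 and 27.3 TPM with the combination. UK5099 was highest, and butyrate and the combination overlapped just under vehicle. None of its coefficients of 0.38 ± 0.03, -0.15 ± 0.03 and -0.12 ± 0.03 was called. The last pair changed sign with another scaling, to 0.20 and 0.37 with median of ratios and 0.16 ± 0.03 and 0.34 ± 0.03 with voom.

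The order of the members within a sample changed with treatment. On TPM with exonic length, vehicle ran from Aldh1a3 (343.8 ± 8.0) over Dhrs3 (143.5 ± 5.5), Rdh10 (96.1 ± 2.2), Rarg (88.7 ± 0.7), Cyp26b1 (28.4 ± 1.3), Aldh1a1 (15.7 ± 1.1) and Rarb (12.2 ± 0.5) to Crabp2 (5.30 ± 0.49), with no neighbours overlapping. In the combination Aldh1a3 still led at 276.4 ± 18, and Crabp2 (111.4 ± 8.8) came next, overlapping Dhrs3 (108.8 ± 1.7). Cyp26b1 was last at 1.17 ± 0.12, under Rarb at 2.54 ± 0.06. Crabp2 was 4th with UK5099 at 76.3 ± 6.5 and 5th with butyrate at 27.8 ± 0.7, where it overlapped Rdh10 at 27.1 ± 0.5. UK5099 gave 119.1 ± 5.5 for Dhrs3 and 118.0 ± 1.8 for Rarg, which overlapped.

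The combination was also set against each drug alone. Against butyrate, 2 members were called, where 0.908% of all genes were called: Crabp2 rose (1.91 ± 0.08, 3.99-fold) and Cyp26b1 fell (-1.43 ± 0.05, 6.41-fold). Voom called 4, with 3.29% of all genes, and added Aldh1a3 and Aldh1a1 (-1.34). Against UK5099 no member was called by limma, where 1.97% of all genes were called, and none with voom, which called 8.06%. Cyp26b1 had a coefficient of -0.55 ± 0.05 and a 2.49-fold lower mean in that comparison, and it was called at -1.15 with a pseudocount of 0.1. Rdh10 had -0.83 ± 0.05 and Crabp2 0.43 ± 0.08. Adding butyrate to UK5099 thus left the groups of both Crabp2 and Cyp26b1 separate, with coefficients nearer 0 than those for adding UK5099 to butyrate.

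The interaction coefficient asks how far the combination lay from the sum of the separate log2 differences. It was called for 4 members and for 1.01% of all genes, and leaving out combination replicate 2 added Rdh10 at 1.00. Voom called 4 as well, among 2.68% of all genes. Crabp2 had -1.49 ± 0.11 and Cyp26b1 1.18 ± 0.08, so the combination moved each less than that sum. For Cyp26b1 the sum could not be reached on this scale. It read 3.62 to 3.74 in vehicle as log2(TPM + 1), so even complete loss would fall short of -2.61 and -1.73 together. Part of the Cyp26b1 interaction was therefore fixed by the scale. Cyp26b1 was not called at 0.74 ± 0.14 with voom, at 0.85 with a pseudocount of 0.1, nor at 0.93 with quantile normalisation. Aldh1a3 had 1.39 ± 0.07 and Aldh1a1 -1.12 ± 0.05, in both cases with the combination near UK5099 or vehicle and away from butyrate. Rdh10 had 0.96 ± 0.07, short of the threshold, and was called with voom at 1.03 ± 0.06. The remaining coefficients were 0.05 ± 0.05 for Dhrs3, 0.18 ± 0.02 for Rarb and -0.35 ± 0.04 for Rarg. With voom they were 0.07 ± 0.04, 0.84 ± 0.11 and -0.34 ± 0.04, and Rarb had 0.79 with exonic length.

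**Figure D3:**
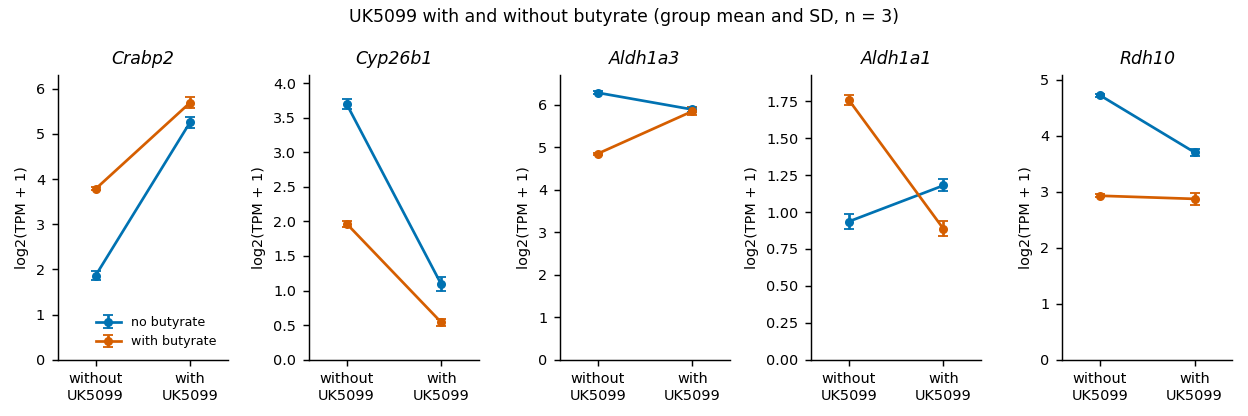
Group means of log2(TPM + 1) (y axis, from 0) of 5 members without and with UK5099 (x axis), in cultures without butyrate (blue) and with butyrate (orange); whiskers are 1 SD (n = 3). Lines would run parallel if the interaction were 0; those of Aldh1a1 cross, and those of Aldh1a3 meet in the groups with UK5099.

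Other genes of the pathway were taken from 5 lists of which 45 genes are covered here, 39 with a row, and 24 reached a mean of 1 TPM in a group. These lists too were drawn up with earlier results known, so their genes are described without p-values. In this wider set, 3 genes were called under UK5099, 1 under butyrate and 6 in the combination, against the shares of all genes given above. Voom called 6, 5 and 8 of them, where it called 5.84%, 10.5% and 14% of all genes. The median coefficients of the 39 genes were 0.00, 0.00 and -0.05 on log2(TPM + 1), a scale that draws the 15 genes under 1 TPM towards 0, and 0.13, 0.48 and 0.29 with voom. On the first scale the calls lay in binding proteins, in interconversion enzymes, in the corepressor Nrip1 and in Tgm2.

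Fabp5, a fatty acid-binding protein that can carry retinoic acid to the receptor PPARδ, rose in all 3 comparisons. It measured 21.4 ± 0.68 TPM in vehicle, 374.7 ± 15.2 TPM with UK5099, 304.2 ± 3.9 TPM with butyrate and 1032 ± 89 TPM with the combination. The coefficients were 4.07 ± 0.06, 3.77 ± 0.06 and 5.53 ± 0.06, all called, with an interaction of -2.31. None of its 3 values under 1000 fragments was whole, so its fragments were shared with other genes and its level is uncertain. Its group order, combination over UK5099 over butyrate over vehicle, was that of Crabp2. The other 3 genes of the list of synthesis, binding and breakdown with a row, Aldh1a2, Aldh8a1 and Crabp1, were not called on this scale. Voom called Aldh8a1, at 0.109 TPM or less on average, higher under butyrate (2.53 ± 0.65) and the combination (2.93 ± 0.75).

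Of the 9 genes of retinol uptake and storage, Rbp2, a cellular retinol-binding protein, was the one called on log2(TPM + 1). Voom added Lrat, which forms retinyl esters, lower in the combination (-2.94 ± 0.34). Lrat rested on only 17 to 22 fragments a sample in vehicle and 2 to 3 in the combination. Rbp2 rose from 0.194 ± 0.056 TPM in vehicle to 1.76 ± 0.08 TPM with UK5099 (coefficient 1.21 ± 0.08) and 7.52 ± 1.19 TPM with the combination (2.83 ± 0.08). With butyrate it read 0.727 ± 0.024 TPM, 3.75-fold the vehicle mean, which was not called on this scale but was with voom (2.21 ± 0.35). Its interaction of 1.08 was called on this scale and not with voom (0.21 ± 0.37). The gene with the highest deposited TPM of the list, the retinol uptake receptor Stra6, had 47.5 ± 0.5, 39.5 ± 0.5, 31.2 ± 0.7 and 25.8 ± 0.02 TPM. Its coefficients of -0.26 ± 0.02, -0.59 ± 0.02 and -0.85 ± 0.02 were under the threshold. With voom they were smaller, at -0.14, -0.29 and -0.41.

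Of the 11 genes of retinol and retinal interconversion with a row, 3 were called on log2(TPM + 1), all in the combination. Rdh12, a retinal reductase, rose from 0.324 ± 0.091 to 2.10 ± 0.23 TPM (1.23 ± 0.08). With voom it was called under UK5099 (2.38 ± 0.22) and butyrate (2.10 ± 0.23) too, where its means were 4.74-fold and 3.48-fold that of vehicle. Adh1, an alcohol dehydrogenase that accepts retinol, fell from 3.86 ± 0.40 to 0.75 ± 0.054 TPM (-1.47 ± 0.07). Dhrs4, a retinal reductase, fell from 9.87 ± 0.16 to 3.79 ± 0.25 TPM (-1.18 ± 0.03). The last call was lost with voom (-0.91), which called Adh7 lower under UK5099 (-1.42 ± 0.29) and higher under butyrate (1.35 ± 0.18). The level of Adh7 was low, with means of 0.654, 0.207 and 1.27 TPM in vehicle, UK5099 and butyrate. Rdh11, with the highest deposited TPM of the list, had 17.7 ± 0.3, 19.7 ± 0.8, 13.4 ± 0.3 and 14.3 ± 0.6 TPM and was not called.

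Of the 9 other receptors and cofactors covered with a row, Nrip1 was called, again in the combination. Nrip1, a corepressor that binds liganded receptors, fell from 23.9 ± 0.39 to 10.7 ± 0.29 TPM (-1.08 ± 0.03). It was not called with voom (-0.69). Rxrb, with the highest deposited TPM of the list, had 38.8 ± 1.5, 36.7 ± 0.7, 35.6 ± 1.0 and 31.2 ± 0.9 TPM. No RAR or RXR gene of the list was called on either scale.

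Of the 6 genes covered that are known to respond to retinoic acid and had a row, Tgm2 was the one called on log2(TPM + 1). Tgm2, a transglutaminase, fell from 8.01 ± 0.35 to 2.40 ± 0.17 TPM with UK5099 (-1.41 ± 0.05). It read 10.4 ± 0.09 TPM with butyrate and 4.48 ± 0.35 TPM with the combination, neither called. The other 5, Rarres1, Rarres2, Meis1, Meis2 and Zbtb16, were called in none of the 3 comparisons on this scale. With voom Rarres1 was called higher under UK5099 (2.34 ± 0.16) and the combination (2.07 ± 0.18), and Zbtb16 lower in the combination (-2.36 ± 0.06). Both were low: Rarres1 averaged 0.148 TPM in vehicle, 0.687 TPM with UK5099 and 0.451 TPM with the combination. Zbtb16 went from 1.18 TPM in vehicle to 0.17 TPM in the combination.

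**Figure D4:**
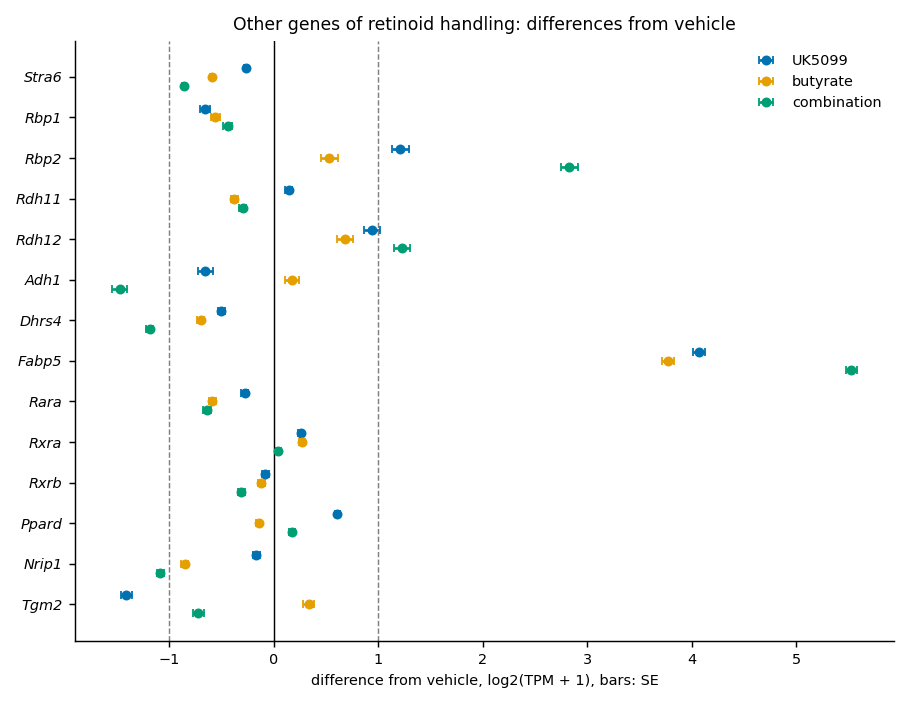
Differences from vehicle (x axis, coefficients on log2(TPM + 1), whiskers 1 SE) of 14 other genes of retinoid handling for the 3 treatments; dashed lines mark the threshold of 1. Fabp5 lies furthest to the right at 3.77 to 5.53, followed by Rbp2 in the combination at 2.83, and Adh1 in the combination lies furthest to the left at -1.47.

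Genes with coefficients most like those of a called member were named among 10631 protein-coding genes that reached a mean of 1 TPM in any group, by the smallest value of the largest difference over the 3 coefficients against vehicle. For Rdh10 these were Map1b, Angptl4 and Dusp4, which differed by at most 0.12. For Aldh1a3 they were Tubb2a, Pglyrp3 and Pthlh, at most 0.38 away. The closest to Crabp2 were Gsta1, Krt16 and Gm3776, with differences of 0.46 to 0.59, and the closest to Cyp26b1 were Ppp1r1b, Hp and Isg15, with differences of 0.56 to 0.64. Crabp2 and Cyp26b1 thus had more distant neighbours than Rdh10 did. Fewer genes had coefficients as extreme as theirs under UK5099 and the combination, so nothing is read from these distances. None of these genes is a member or on a list of the pathway.

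Markers of the cell types that such cultures could hold were measured beside the members. The summed TPM of the basal markers Krt5, Krt14 and Trp63 was 3507 to 3547 in vehicle, 9746 to 10240 under UK5099, 4486 to 4676 under butyrate and 8067 to 8320 in the combination. All 3 were detected, as the label of basal origin has it. Under butyrate none was called on log2(TPM + 1), with 2 higher and 1 lower at an adjusted p under 0.01, and voom called 2 higher. The luminal markers Krt8, Krt18 and Krt19 summed to 4132 to 4301, 2328 to 2487, 2241 to 2281 and 1389 to 1576 TPM. The 6 squamous markers summed to 86.6 to 88.3, 627 to 682, 149 to 159 and 540 to 649 TPM, with 5, 4 and 5 of the 6 called higher under UK5099, butyrate and the combination. Basal and squamous sums were thus highest in the UK5099 and combination groups, where Crabp2 was highest and Cyp26b1 lowest. The part of cell type makeup in the members' values was not tested, and in bulk samples fewer cells of a type and less RNA per cell cannot be told apart.

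Markers of cells from outside the epithelium were mostly low. Of the 8 stromal markers 7 had a row, and they summed to 2.30 to 3.05 TPM in vehicle, UK5099 and the combination but to 10.6 to 10.98 TPM with butyrate, the group in which Aldh1a1 was highest. Dcn made up 9.51 TPM of that sum against 0.762 TPM in vehicle. At an adjusted p under 0.01, 1 of the 7 stromal markers was higher with butyrate and 2 were lower, with a median coefficient of -0.05. The rise of the sum was thus that of Dcn and not of the list, and the part of stromal cells in Aldh1a1 was not tested. The immune list, with 2 of 5 genes in the table, summed to 23.8 to 24.8 TPM in vehicle and 86.4 to 97.1 TPM in the combination, all but a trace of it Cd68, while the defining gene Ptprc was at 0.001 TPM in vehicle. Endothelial markers summed to at most 0.041 TPM and neuroendocrine markers to at most 0.645 TPM.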

How the data were processed

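RNA was sequenced from 12 organoid cultures, grouped by the treatment and replicate number in their labels. Per the labels, ribosomal RNA was depleted, mRNA enriched and the second strand marked with dUTP before paired sequencing. The submitters' processing notes name STAR 2.7.9a, Partek and the GRCm39 build, whereas the study's methods name RSEM and GRCm38. The authors deposited TPM for 24674 genes. In 100% of rows the length column equalled the gene's span from start to stop, and this span was the divisor of the TPM values.

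Fragments were recovered from the steps of the TPM values. Between 59.0% and 61.3% of values above 0 were whole within 0.02 of a fragment (75.4% to 76.7% of protein-coding values under 1000 fragments), and the rest were fractional, as when fragments are shared among genes. Replicates differed by more than sampling noise in every pair, with a chi-square per degree of freedom of 1.93 to 6.64, the pairs with UK5099 replicate 1 or combination replicate 1 being at least 6.29. Intervals from counting were not used, since the 3 replicates carry the error.

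All genes and samples were fitted with limma 3.58.1 (R 4.3.3) on log2(TPM + 1) with terms for UK5099, butyrate and their product. Empirical Bayes moderation and Benjamini-Hochberg adjustment were applied, and calls needed an adjusted p under 0.01 and an absolute coefficient over 1. The combination was set against each drug in the same fit. Scripts were tested on simulated data. Alternatives were pseudocounts of 0.1 and 0.01, a filter at a mean of 1 TPM, median-of-ratios and quantile scaling, voom with trimmed-mean (TMM) factors on recovered fragments, TPM with exonic length (23913 genes matched to GENCODE), a replicate block and each sample left out. Named genes were the members, other listed retinoid genes called against vehicle or highest in deposited TPM in their list, and the 3 most similar genes per called member. The genes named as not called fall outside this rule and were named after their values were seen. The members and lists were chosen with earlier results of these data known. Of the listed retinoid genes, 2 are not reported here, and counts over the lists cover the others. RefSeq promoter windows matched 6 of the 9 members.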

Additional observations from a re-analysis of the deposited data

Results flagged for a closer look

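Among the members, 4 genes responded to UK5099 differently with and without butyrate by the interaction term of the limma fit, which is what brought them up here. That term was called for 1.01% of all genes, and nothing is read from the count, since earlier results guided the choice of members. The interaction was -1.49 for Crabp2, 1.18 for Cyp26b1, 1.39 for Aldh1a3 and -1.12 for Aldh1a1 on the log2(TPM + 1) scale. UK5099 took Crabp2 from 2.64 to 37.4 TPM without butyrate and from 12.7 to 50.9 TPM with it. For Cyp26b1 the corresponding steps were from 11.97 to 1.13 TPM and from 2.91 to 0.454 TPM. Aldh1a3 went from 76.9 to 58.3 TPM without butyrate and from 27.8 to 56.7 TPM with it, and Aldh1a1 from 0.914 to 1.27 TPM and from 2.39 to 0.849 TPM. In the last pair of genes UK5099 therefore moved the mean in opposite directions with and without butyrate. The Cyp26b1 interaction was under the threshold at 0.74 with voom, and Aldh1a1 shares fragments with other genes. On log2(TPM + 1) the sum of separate differences for Cyp26b1 lay beyond complete loss, so part of its interaction was fixed by the scale. Groups of 3 samples are too small to single out a sample.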

How the results depend on the processing

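The pseudocount, the unit and the gene length moved the counts of calls most. For UK5099, butyrate and the combination against vehicle, then the combination against butyrate and against UK5099, then the interaction, 454, 874, 1585, 224, 487 and 250 genes were called. These became 1034, 1955, 3292, 546, 1297 and 519 with a pseudocount of 0.1, 1412, 2573, 4118, 754, 1843 and 599 with 0.01, and 1440, 2595, 3460, 813, 1989 and 661 with voom. Exonic length gave 688 for UK5099, 363 for the combination against butyrate and 381 for the interaction. Scaling by median of ratios moved the share of higher calls from 60.7% to 72.3% for the combination against butyrate and from 41.7% to 73.4% against UK5099. Quantile normalisation gave 61.8%, 56.3% and 58.8% against vehicle, and voom 50.6%, 64.9% and 61.4%.

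Members called in the combination against butyrate went from 2 to 4 with both pseudocounts, voom and exonic length, where Aldh1a1 and Aldh1a3 were added. Against UK5099 they went from 0 to 1 with both pseudocounts (Cyp26b1). Voom called 3, 6 and 4 members against vehicle, beside 5.84%, 10.5% and 14% of all genes. Exonic length also moved the Rarb coefficients past the threshold, and the cause of other changes was not tested. The filter at 1 TPM left Rarb out. No called member changed sign. Leaving out each sample gave 439 to 461, 862 to 896, 1528 to 1643, 213 to 231, 464 to 495 and 237 to 253 genes, and 2 to 3, 4, 3, 2 to 3, 0 and 4 to 5 members.

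Replicate numbers did not pair the samples: same-numbered samples of 18 pairs had deviations with r of -0.089 to 0.036, and 2 of 12 samples correlated best with their own number. With the replicate number as a block, 449, 866, 1580, 223, 478 and 242 genes and 3, 4, 3, 2, 0 and 4 members were called, and no member's call changed. Low depth limits Crabp2 in vehicle and Cyp26b1 in the combination, and shared fragments limit Aldh1a1 and Rarb.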
